A study of Homo sapiens with 7 samples.

Results

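The classical protein tyrosine phosphatases other than SHP2 were followed in SUM159 cells whose SHP2 had been knocked down. Of 34 genes of the family that remained after PTPN11 (SHP2), PTPN6, PTPRCAP and PTPN20 were set aside, 30 had a probe with a single gene symbol, 14 of the non-receptor and 16 of the receptor class, among 18417 genes measured. PTPRA shares its probe with a neighbouring gene, and PTPRJ, PTPRQ and PTPRT were not listed in the annotation used here, so these 4 were not analysed. SUM159 is a human triple-negative breast cancer line. All cells carried a doxycycline-inducible hairpin, called miR in the labels, and received doxycycline for 15 days, the controls included. SHP2 sh1 (2 arrays) and SHP2 sh2 (3 arrays) carried different hairpins against PTPN11, and Ctrl shRNA (2 arrays) carried a control hairpin. The labels do not say if replicate arrays stand for separate cultures, so the p-values reflect array-to-array spread that could be technical. The comparison asks whether the RNA of any other phosphatase of the family was higher or lower once SHP2 was knocked down.

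Classical protein tyrosine phosphatases remove phosphate from tyrosine through a catalytic cysteine, and so oppose tyrosine kinases. The non-receptor members differ in the domains beside the catalytic one (FERM, PDZ, proline-rich or SH2 domains), which place them at particular sites and substrates. The receptor members span the membrane, and many carry adhesion-type repeats outside the cell. SHP2 is unusual in the family in that it chiefly promotes signalling from growth factor receptors to RAS and ERK, whereas PTP1B, PTP-PEST and several others dampen receptor or adhesion signalling in many cell types. Many members are also regulated by oxidation, phosphorylation or cleavage, which arrays do not measure.

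The values are log2 expression made by the authors with robust multi-array averaging, and a difference of 1 is a doubling of signal. PTPN11 itself had 7.90 and 6.93 with SHP2 sh1 and 7.96, 7.20 and 7.89 with SHP2 sh2, against 9.53 and 9.18 with Ctrl shRNA. All 5 SHP2 arrays thus lay below both controls. The replicate 2 arrays of SHP2 sh1 and SHP2 sh2 stood apart from the other 5. Their correlations with those 5 ran from 0.886 to 0.965, against 0.981 to 0.992 among those 5, and on both arrays bright genes lay lower and dim genes higher. Genes were therefore also grouped in 4 classes of equal size by their mean signal over the 7 arrays, from class 1 (dimmest) to class 4 (brightest). Of the markers of SUM159's mesenchymal type, 7 of 10 lay in class 4, against 2 of 11 epithelial, 1 of 13 blood, 0 of 10 endothelial and 0 of 10 neural markers.

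No phosphatase of the family passed an adjusted p of 0.05 in limma in any of 4 comparisons (SHP2 sh1 against Ctrl shRNA, SHP2 sh2 against Ctrl shRNA, both hairpins averaged against Ctrl shRNA, and SHP2 sh2 against SHP2 sh1). Among all 18417 genes the share called was 0% in each. PTPN11 did not pass either, with a log2 fold change of -1.80 ± 0.34 (SE) and an adjusted p of 0.758 in limma when both hairpins were averaged. The smallest adjusted p among members was 0.995 for SHP2 sh1, 0.667 for SHP2 sh2, 0.758 for their mean and 1.00 between hairpins. Before adjustment, p was under 0.05 for 1 of 30 members with SHP2 sh1 (1.09% of all genes), 5 of 30 with SHP2 sh2 (2.35%), 4 of 30 in the mean of both (1.94%) and 0 of 30 between hairpins (0.63%). These members were PTPN22, PTPN13, PTPRD, PTPN21 and PTPRK, and all lay lower in SHP2 hairpin cells than in Ctrl shRNA cells. The comparisons with Ctrl shRNA share its 2 arrays, and are not independent of each other.

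**Figure D1:**
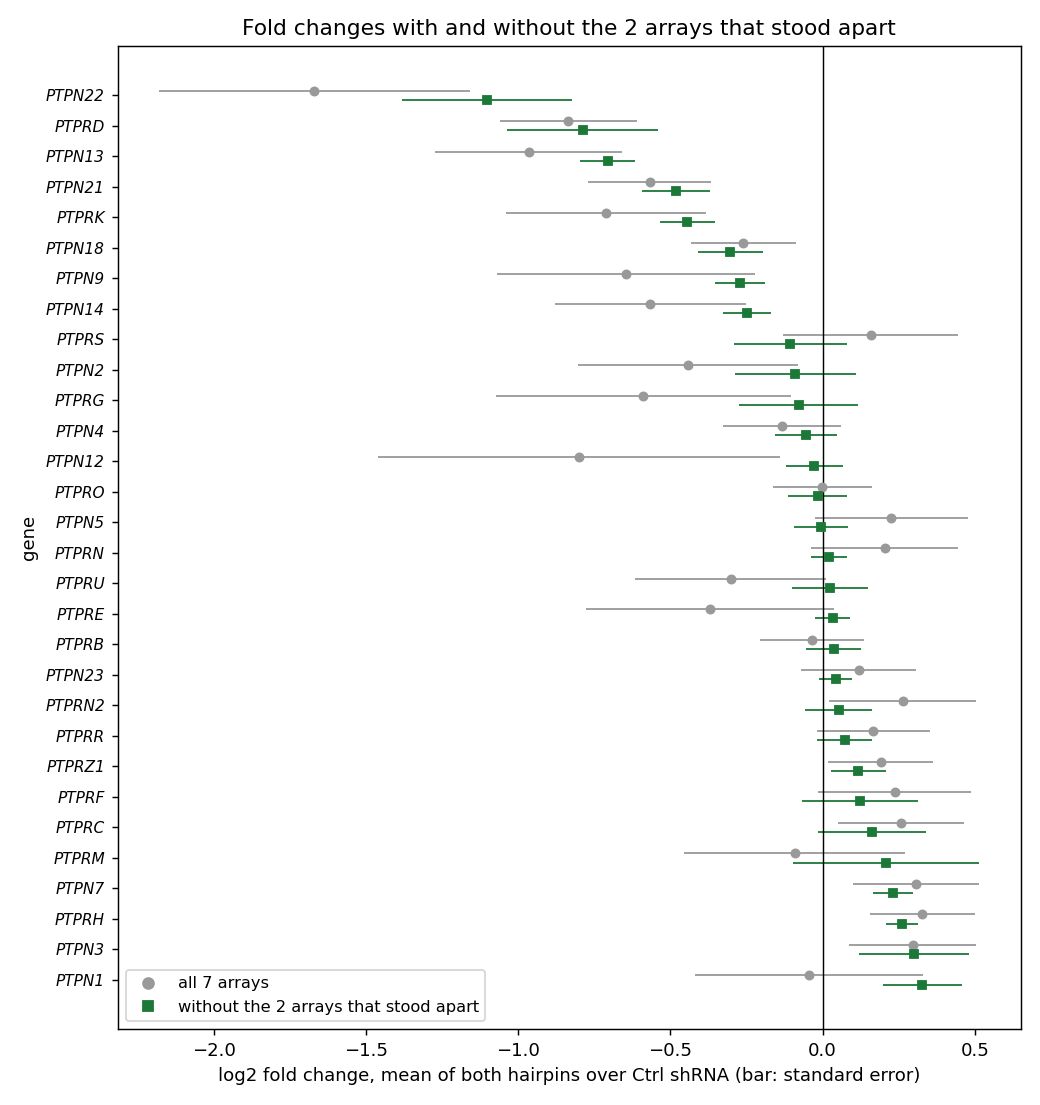
Log2 fold change of each of the 30 phosphatases (rows) for both hairpins averaged, against Ctrl shRNA (x axis), fitted on all 7 arrays (grey circles) and without SHP2 sh1 replicate 2 and SHP2 sh2 replicate 2 (green squares). Bars are standard errors from limma, and PTPN22 lay lowest in both fits, at -1.67 and -1.10.

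The members lay on both sides of 0 when cells with SHP2 hairpins were set against Ctrl shRNA cells. With the hairpins averaged, 12 of 30 lay above 0 and 18 below, with a median of -0.07, while 10691 of all 18417 genes lay above 0 and 7726 below, with a median of 0.075. Without the arrays that stood apart, 15 members lay above 0 and 15 below, with a median of 0.0077, against a median of 0.0018 over all genes. Of the members, 21 of 30 (70%) lay within 0.5 of 0, against 83.6% of all genes, and 1, PTPN22, lay beyond 1. Without the arrays that stood apart 90% of members and 96.0% of all genes lay within 0.5. With all 7 arrays the median of members was -0.04 with SHP2 sh1 and -0.10 with SHP2 sh2. With the hairpins averaged, non-receptor members had a median of -0.35 with 10 of 14 below 0, and receptor members one of 0.08 with 8 of 16 below 0. By array, the non-receptor median difference from the mean of the controls was -0.05 and -0.38 with SHP2 sh1. It was -0.30, -0.93 and -0.10 with SHP2 sh2, so that the lowest values lay on both arrays that stood apart. The receptor median ran from 0.02 to 0.13 over the arrays. On single arrays the family's median difference from the mean of the controls was 0.01 and -0.19 with SHP2 sh1 and -0.13, -0.19 and 0.00 with SHP2 sh2, so that the lower values lay on both arrays that stood apart and on SHP2 sh2 replicate 1.

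Of the 30 members, 8 lay lower on each of the 5 SHP2 arrays than on both Ctrl shRNA arrays, against 7.17% of all genes. These were PTPN22, PTPN13, PTPN14, PTPN21, PTPN9, PTPN18, PTPRD and PTPRK. Another 3 lay higher on every SHP2 array (PTPN7, PTPRH and PTPRZ1), against 8.13% of all genes. With the arrays that stood apart left out, the counts stayed at 8 lower (8.81% of all genes) and 3 higher (10.1%). Members on a side of all 5 arrays must stay there on the 3 that remain. Their recurrence was thus fixed in advance, and only the lack of added members was open. The shares of genes depend on signal, and the members were spread unevenly, with 5 in class 1, 9 in class 2, 4 in class 3 and 12 in class 4. Within class 4, 4 of 12 members lay lower, against 13.1% of genes, and in class 3 it was 3 of 4, against 8.91%. In class 2 it was 0 of 9, against 5.04%, and in class 1 it was 1 of 5, against 1.67%. The member of class 1 was PTPN22, whose low SHP2 values also enter the mean that sets its class. On the higher side it was 1 of 5 in class 1, against 12.8% of genes, and 2 of 9 in class 2, against 10.7%. It was 0 of 4 in class 3, against 6.39%, and 0 of 12 in class 4, against 2.63%. These are descriptions of few genes, and no test was made of the family as a list.

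**Figure D2:**
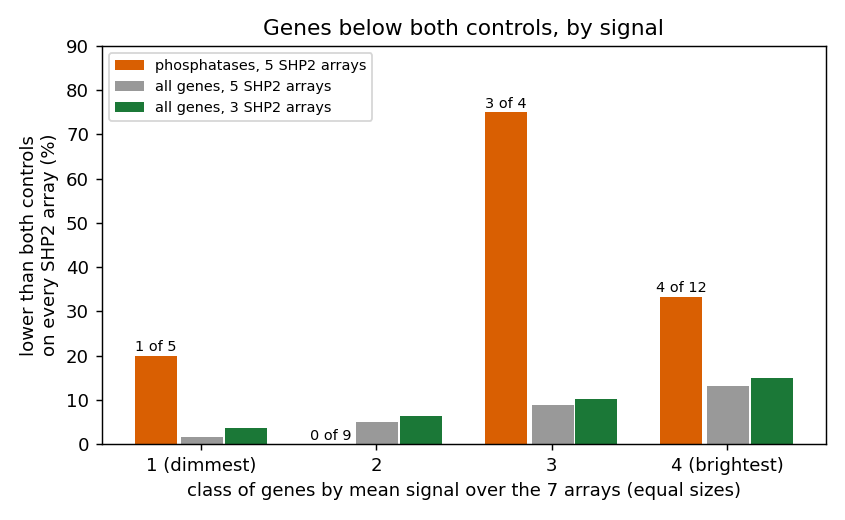
Percent of genes lower on every SHP2 array than on both Ctrl shRNA arrays (y axis), by class of mean signal (x axis), for the phosphatases and for all genes on the 5 SHP2 arrays, and for all genes on the 3 SHP2 arrays that did not stand apart. The brightest class held 4 of 12 phosphatases on the lower side, and class 3 held 3 of 4.

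By hairpin, 8 members lay lower on both SHP2 sh1 arrays than on both controls (12.3% of all genes) and 6 lay higher (12.8%). With SHP2 sh2, 11 members lay lower on all 3 arrays (16.1% of all genes) and 5 lay higher (24.2%). The 11 comprised the 8 named above with PTPN12, PTPN4 and PTPRE. The 5 were PTPN7, PTPRH, PTPRZ1, PTPRF and PTPRN, a share of members below the share of genes.

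The PEST group of phosphatases, named for proline-rich tails, had all 3 measured members below 0 with either hairpin. PTPN22 (LYP), known for restraining T cell receptor signalling in lymphocytes, had 5.75 and 4.0 with SHP2 sh1 and 5.69, 4.55 and 4.97 with SHP2 sh2, against 6.77 and 6.52 with Ctrl shRNA. All 5 SHP2 arrays were below both controls with a gap of 0.77, and the lowest values lay on both arrays that stood apart. The log2 fold change was -1.77 with SHP2 sh1, -1.57 with SHP2 sh2 and -1.67 ± 0.51 (SE) in the mean of both, a signal 3.18-fold lower, with an unadjusted p of 0.015 and an adjusted p of 0.758 in limma. Without the arrays that stood apart the mean was -1.10. PTPN22 is a gene of blood cells. It belongs to class 1 by its mean over the 7 arrays, which includes its low values on the SHP2 arrays. On the Ctrl shRNA arrays it lay near the medians of all probes, 6.57 and 6.55. Its signal on the SHP2 arrays may be close to background, and no detection call accompanies these values. The 13 blood markers measured had medians of 5.77 and 5.91 on SHP2 sh1 arrays and 5.85, 6.09 and 5.86 on SHP2 sh2 arrays, against 5.71 and 5.62 on Ctrl shRNA arrays, with 11 of 13 in classes 1 and 2. The blood markers thus lay slightly higher where PTPN22 lay lower, and their part in its difference was not tested. Their median log2 fold change with the hairpins averaged was 0.27, beside 0.36 for epithelial, 0.26 for neural and 0.20 for endothelial markers and 0.16 and 0.20 for all genes of classes 1 and 2. In bulk RNA, fewer cells that express a gene and less RNA per cell cannot be told apart. The paper describes the SUM159 knockdown data of its motif analysis as RNAseq from tumors. Its methods, however, describe SUM159 samples hybridized to arrays, and these are the data used here. The sample titles used here name only SUM159, the hairpin and a number.

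PTPN12 (PTP-PEST), which acts on the adhesion scaffold p130Cas and on receptor tyrosine kinases, had 9.71 and 7.74 with SHP2 sh1 and 9.02, 7.41 and 9.18 with SHP2 sh2, against 9.35 and 9.51 with Ctrl shRNA. SHP2 sh1 replicate 1 was above both controls, and the 2 lowest arrays were those that stood apart. The mean of both hairpins was -0.80 ± 0.66 (SE), and -0.03 without these arrays. PTPN18, which acts on HER2, had 7.50 and 7.72 with SHP2 sh1 and 7.65, 7.61 and 7.72 with SHP2 sh2, against 7.77 and 8.02 with Ctrl shRNA. Its groups did not overlap, by a gap of only 0.05, and its mean fold change was -0.26 ± 0.17 (SE, log2).

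Among the FERM group, whose members bind beneath the membrane and at cell junctions, PTPN13, PTPN14 and PTPN21 lay lower on all 5 SHP2 arrays. PTPN13 (PTP-BAS), a large protein with a FERM and several PDZ domains that binds the death receptor FAS, had 9.18 and 8.75 with SHP2 sh1 and 8.57, 7.57 and 8.39 with SHP2 sh2, against 9.49 and 9.58 with Ctrl shRNA. Its values on the SHP2 sh2 arrays were all below those on the SHP2 sh1 arrays, which were in turn below the controls. The log2 fold change was -0.57 with SHP2 sh1, -1.36 with SHP2 sh2 and -0.97 ± 0.31 (SE) in the mean of both, with an unadjusted p of 0.017 and an adjusted p of 0.758 in limma. Without the arrays that stood apart the mean was -0.71.

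PTPN21, a FERM phosphatase that binds TEC-family kinases, had 7.68 and 7.63 with SHP2 sh1 and 7.43, 7.09 and 7.60 with SHP2 sh2, against 7.97 and 8.19 with Ctrl shRNA. The gap between the groups was 0.29, and the mean of both hairpins was -0.57 ± 0.20 (SE) with an unadjusted p of 0.027 and an adjusted p of 0.758 in limma. Without the arrays that stood apart it was -0.48. PTPN14, which binds the Hippo pathway effector YAP, had 10.12 and 9.37 with SHP2 sh1 and 10.00, 9.29 and 10.13 with SHP2 sh2, against 10.39 and 10.29 with Ctrl shRNA. Its lowest values lay on the arrays that stood apart, and the mean of both hairpins was -0.57 ± 0.31 (SE) with them and -0.25 without. PTPN3, a FERM and PDZ phosphatase, had 6.35 and 6.14 with SHP2 sh1 and 6.40, 6.46 and 5.98 with SHP2 sh2, against 6.09 and 5.84 with Ctrl shRNA. SHP2 sh2 replicate 3 lay between the controls, and the mean was 0.30 ± 0.21 (SE). PTPN4, its closest relative in domain order, was at -0.13 ± 0.19 (SE).

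PTPN9 (MEG2), found on secretory vesicles, had 8.54 and 7.96 with SHP2 sh1 and 8.49, 7.19 and 8.63 with SHP2 sh2, against 8.87 and 8.77 with Ctrl shRNA. All SHP2 arrays were lower, with the lowest on the arrays that stood apart, and the mean of both hairpins was -0.65 ± 0.42 (SE) with them and -0.27 without. PTPN1 (PTP1B), which dampens insulin receptor signalling, was chosen for its values here after they were seen. It had 9.78 and 8.98 with SHP2 sh1 and 9.36, 8.42 and 9.55 with SHP2 sh2, against 9.43 and 9.15 with Ctrl shRNA. The groups overlapped, the mean was -0.04 ± 0.37 (SE), and it was 0.33 without the arrays that stood apart, so its direction rests on these arrays. PTPN2 (TC-PTP), which acts on JAK kinases and STAT proteins, was at -0.44 ± 0.36 (SE), and PTPN23 (HD-PTP), which sorts receptors at endosomes, at 0.12 ± 0.19 (SE). The KIM group binds MAP kinases through a kinase interaction motif and holds PTPN7 (HePTP), a regulator of ERK and p38 in blood cells. PTPN7 had 6.42 and 6.38 with SHP2 sh1 and 6.37, 6.93 and 6.46 with SHP2 sh2, against 6.22 and 6.15 with Ctrl shRNA. All SHP2 arrays were higher, by a gap of 0.15, and the mean of both hairpins was 0.31 ± 0.21 (SE). PTPN7, like PTPRH below, lies in class 2, where all genes had a median of 0.20 with the hairpins averaged. The relatives of PTPN7, PTPN5 (STEP) and PTPRR, better known from neurons, were at 0.23 ± 0.25 and 0.17 ± 0.19 (SE). Without the arrays that stood apart PTPN7 was at 0.23, PTPN5 at -0.0049 and PTPRR at 0.072.

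**Figure D3:**
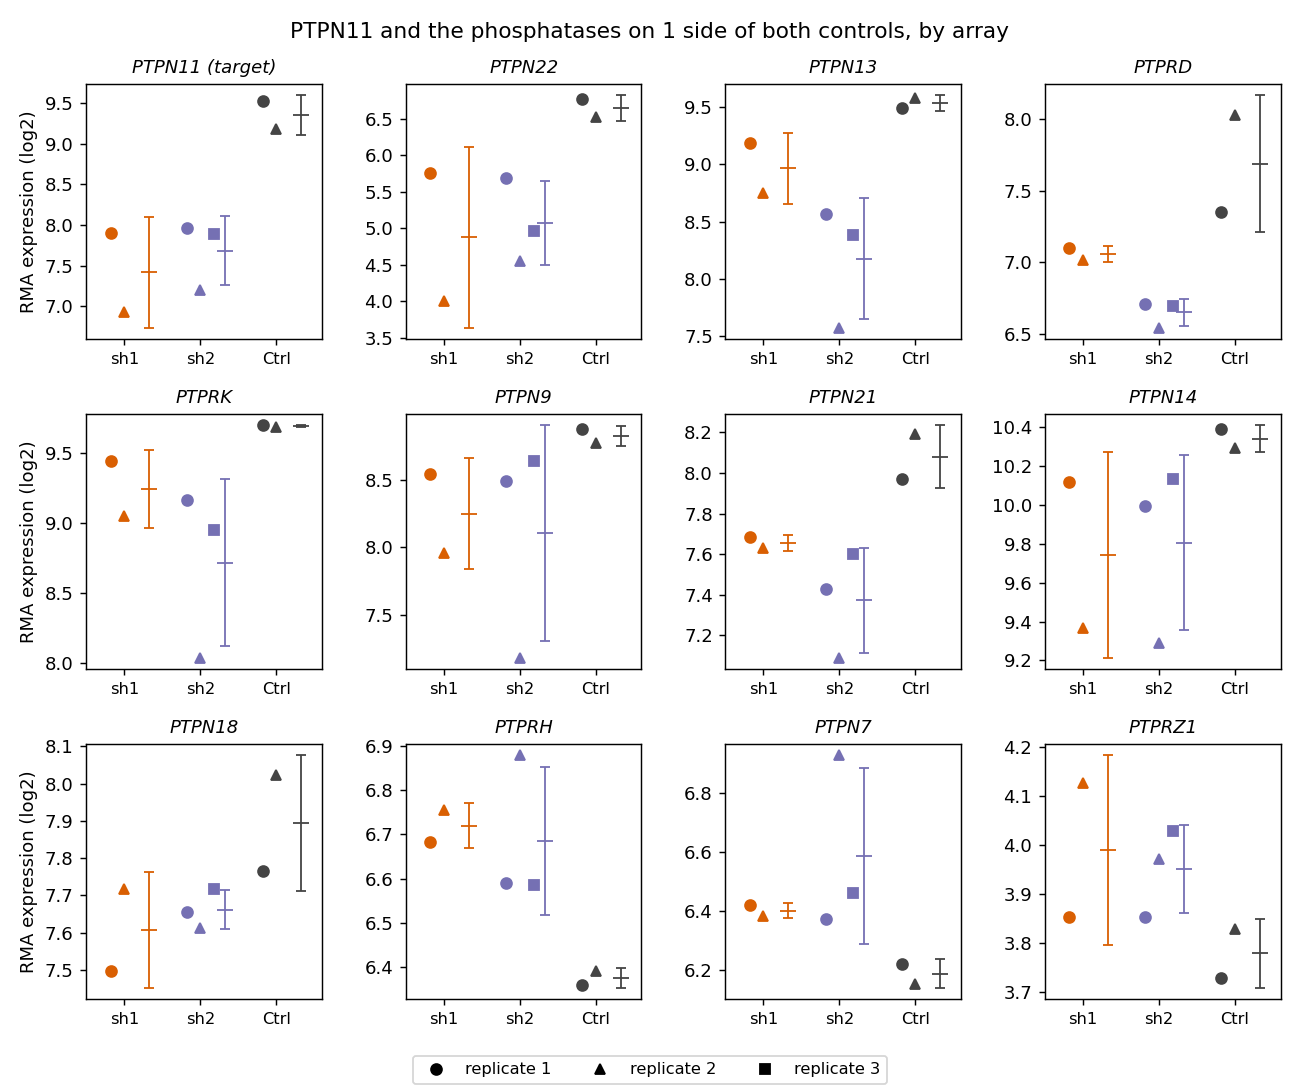
Log2 expression (y axis) by group (x axis), with PTPN11 and the 11 members whose SHP2 arrays lay on a single side of both controls in panels of their own. Each point is 1 array, its shape the replicate number, bars are the mean and SD of a group, and both SHP2 arrays of replicate 2 (triangles) are those that stood apart. PTPN22 and PTPN13 lay below both controls on every SHP2 array, at 4.0 to 5.75 and 7.57 to 9.18.

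Among the receptors of the LAR group, which bind heparan sulphate proteoglycans and synaptic partners, PTPRD lay lower on every SHP2 array, and PTPRF and PTPRS did not. PTPRD had 7.10 and 7.02 with SHP2 sh1 and 6.71, 6.54 and 6.69 with SHP2 sh2, against 7.35 and 8.03 with Ctrl shRNA. The SHP2 sh2 arrays were the lowest and lay close together, and the controls differed from each other by more than the SHP2 arrays did. The log2 fold change was -0.63 with SHP2 sh1, -1.04 with SHP2 sh2 and -0.84 ± 0.22 (SE) in the mean of both, with an unadjusted p of 0.008 and an adjusted p of 0.758 in limma. Without the arrays that stood apart the mean was -0.79, little different from the value with them. PTPRF (LAR) was at 0.24 ± 0.25 (SE) and PTPRS at 0.16 ± 0.29 (SE), and PTPRS was at -0.11 without the arrays that stood apart. Whether PTPRD differed from PTPRF or PTPRS in its response was not tested.

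The MAM receptors, which sit at cell contacts, all lay below 0 in the mean of both hairpins. PTPRK, which binds its own kind on neighbouring cells, had 9.44 and 9.05 with SHP2 sh1 and 9.16, 8.04 and 8.95 with SHP2 sh2, against 9.70 and 9.69 with Ctrl shRNA. All SHP2 arrays were lower by a gap of 0.25, and the mean was -0.71 ± 0.33 (SE), or -0.44 without the arrays that stood apart. PTPRU was at -0.30 ± 0.31 (SE) and PTPRM at -0.09 ± 0.36 (SE), and both were above 0 without these arrays, at 0.02 and 0.21.

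PTPRH (SAP-1), a receptor of the intestinal epithelium with fibronectin repeats, had 6.68 and 6.76 with SHP2 sh1 and 6.59, 6.88 and 6.59 with SHP2 sh2, against 6.36 and 6.39 with Ctrl shRNA. All SHP2 arrays were higher, by a gap of 0.19, and at 0.33 ± 0.17 (SE) it had the highest mean of the family, a 1.25-fold higher signal, with an unadjusted p of 0.102. Its relatives PTPRB (VE-PTP), a receptor of endothelium, and PTPRO (GLEPP1), known from kidney podocytes, were at -0.04 ± 0.17 and 0.00 ± 0.16 (SE). PTPRZ1, the glial receptor of pleiotrophin, had 3.85 and 4.13 with SHP2 sh1 and 3.85, 3.97 and 4.03 with SHP2 sh2, against 3.73 and 3.83 with Ctrl shRNA. It belongs to class 1 and the gap was 0.02. Its relative PTPRG was at -0.59 ± 0.48 (SE), and at -0.08 without the arrays that stood apart.

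PTPRN2 (phogrin), which with PTPRN (IA-2) sits in dense-core vesicles and has little activity on phosphotyrosine, had 6.47 and 6.98 with SHP2 sh1 and 6.74, 7.19 and 6.66 with SHP2 sh2, against 6.66 and 6.40 with Ctrl shRNA. SHP2 sh1 replicate 1 lay between the controls, and the mean was 0.26 ± 0.24 (SE), with PTPRN at 0.20 ± 0.24 (SE). PTPRC (CD45), the receptor phosphatase of leukocytes, was at 0.26 ± 0.21 (SE), and PTPRE at -0.37 ± 0.41 (SE), or 0.03 without the arrays that stood apart. SHP1 (PTPN6), which shares its domain order with SHP2, had 7.55 and 7.89 with SHP2 sh1 and 7.75, 7.75 and 7.56 with SHP2 sh2, against 7.54 and 7.45 with Ctrl shRNA, with a mean of 0.21 ± 0.18 (SE).

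Both arrays that stood apart were the lowest of the 7 for 9 members (28.2% of all genes) and the highest for 6 (39.7%). The 9 were PTPN1, PTPN2, PTPN9, PTPN12, PTPN14, PTPN22, PTPRU, PTPRE and PTPRG, and 7 of them lay in class 4, where 58.8% of genes had these arrays lowest. The 6 were PTPN5, PTPRR, PTPRS, PTPRH, PTPRN and PTPRN2, and 5 of them lay in classes 1 and 2, where 56.2% of genes had these arrays highest. The 12 members of class 4 had median differences from the controls of -0.06 and -0.69 on SHP2 sh1 arrays and -0.26, -1.19 and -0.17 on SHP2 sh2 arrays. All genes of that class had 0.00 and -0.44 on SHP2 sh1 arrays and -0.13, -0.83 and 0.00 on SHP2 sh2 arrays. The median standard error of a gene's mean difference was 0.264 with the 7 arrays and 0.094 with the other 5. Without these arrays SHP2 sh1 keeps a single array, so the smaller standard error holds no spread within that group. Both arrays left out were also picked because they stood apart, so p-values of that fit are not given.

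**Figure D4:**
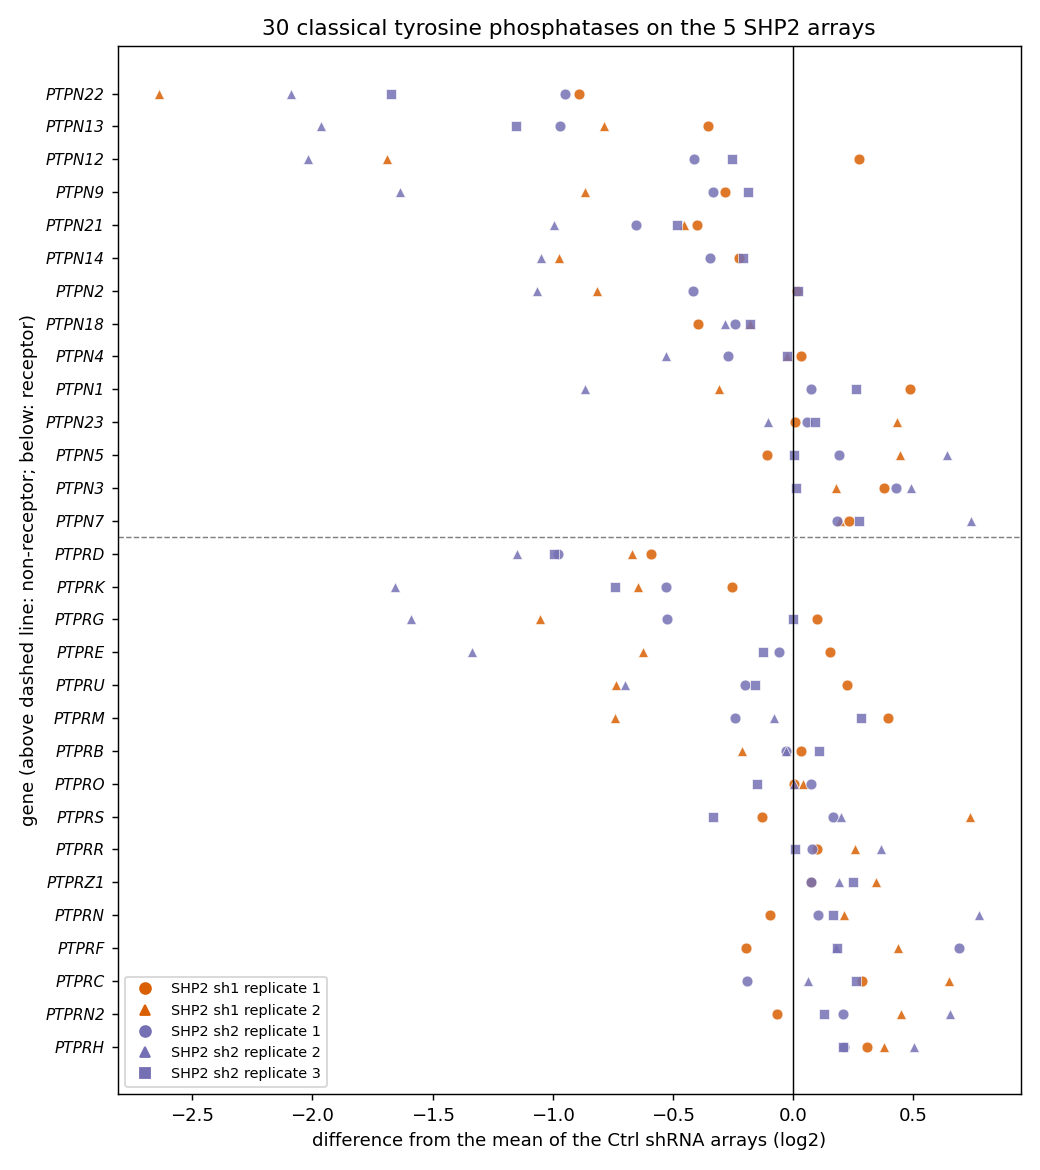
Difference of each of the 30 phosphatases (rows) from the mean of the Ctrl shRNA arrays (x axis, log2), with a point for each of the 5 SHP2 arrays, its colour the hairpin and its shape the replicate number. Triangles, the arrays that stood apart, lie farthest left for PTPN22, PTPN12, PTPN9, PTPN14 and PTPRG, while PTPRH and PTPN7 have all 5 points right of 0.

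The hairpins were also set against each other. For 4 members all 3 SHP2 sh2 arrays lay below both SHP2 sh1 arrays (3.08% of all genes), and for 0 members they lay above (2.21%). The 4 were PTPN13, PTPN21, PTPRD and PTPRC. PTPN13 had the largest difference of these, -0.79 ± 0.33 (SE, log2), with a 95% interval of -1.59 to 0.0046 and an adjusted p of 1.00 in limma. PTPRC had 3.90, 4.16 and 4.36 with SHP2 sh2, against 4.38 and 4.75 with SHP2 sh1, and 4.16 and 4.04 with Ctrl shRNA. The SHP2 sh2 arrays of PTPRC overlapped the controls, with replicate 3 above both, and the SHP2 sh1 arrays lay above both. Matches of the hairpin sequences to PTPN22 or PTPN13 were not analysed here.

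The promoters of members were read from RefSeq (GRCh38.p14), as windows from 250 bases before to 50 after a start site given by RefSeq, which for PTPN22 lies inside the annotated gene. Of 30 members, 28 were matched, with 44 windows in all, since 9 members had several. They were searched on both strands for exact matches to CCGGAAG, a form of the ETS factor site, and to TGAGTCA, a site of AP-1. ERK signalling acts on both kinds of factor. Other forms of these sites were not searched, so a window without a match may still hold one. CCGGAAG was found in 10.3% of all promoters and in 2 of these 44, those of PTPN23 and PTPRE, neither of which lay lower on every SHP2 array. TGAGTCA was found in 4.95% of all promoters and in 1 of the 44, that of PTPN9, which did. No window of a member held both motifs. The promoters of PTPN22 and PTPN13, the lowest members, are shown with those of PTPN9 and PTPN23, which hold a match, so that the windows can be read beside their values. Capitals mark the TGAGTCA of PTPN9 and, in PTPN23, the match to CCGGAAG on the opposite strand. The PTPN22 window lies on the minus strand at chr1:113871663-113871962, that of PTPN13 on the plus strand at chr4:86594065-86594364, that of PTPN9 on the minus strand at chr15:75579266-75579565, and that of PTPN23 on the plus strand at chr3:47380771-47381070.
PTPN22: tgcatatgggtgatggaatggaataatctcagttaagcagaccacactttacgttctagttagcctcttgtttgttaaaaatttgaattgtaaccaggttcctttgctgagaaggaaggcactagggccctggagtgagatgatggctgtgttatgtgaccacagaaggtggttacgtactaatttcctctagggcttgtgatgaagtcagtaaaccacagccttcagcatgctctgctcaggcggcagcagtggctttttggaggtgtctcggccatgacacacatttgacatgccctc
PTPN13: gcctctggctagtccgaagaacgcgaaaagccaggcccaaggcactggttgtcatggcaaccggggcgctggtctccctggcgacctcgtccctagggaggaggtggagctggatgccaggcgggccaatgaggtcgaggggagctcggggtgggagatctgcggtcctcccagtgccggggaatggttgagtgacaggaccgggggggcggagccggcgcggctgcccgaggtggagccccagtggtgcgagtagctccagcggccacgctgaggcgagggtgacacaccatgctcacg
PTPN9: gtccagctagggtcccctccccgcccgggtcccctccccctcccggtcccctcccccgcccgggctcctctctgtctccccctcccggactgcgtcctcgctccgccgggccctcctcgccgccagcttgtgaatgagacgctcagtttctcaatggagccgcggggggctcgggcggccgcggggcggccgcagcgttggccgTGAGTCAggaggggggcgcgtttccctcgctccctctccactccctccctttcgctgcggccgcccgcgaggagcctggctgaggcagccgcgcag
PTPN23: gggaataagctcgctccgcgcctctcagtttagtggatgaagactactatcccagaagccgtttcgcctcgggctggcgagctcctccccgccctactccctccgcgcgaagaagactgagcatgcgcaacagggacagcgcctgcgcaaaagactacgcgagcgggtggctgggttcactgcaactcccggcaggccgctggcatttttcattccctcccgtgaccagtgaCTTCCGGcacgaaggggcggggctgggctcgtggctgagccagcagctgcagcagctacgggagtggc
The GC content was 46.7% for PTPN22, 68.7% for PTPN13, 75.3% for PTPN9 and 64% for PTPN23. A match is a description of letters in a window and not evidence of binding.

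Genes around the family were counted in the same fit, and none passed adjustment. Of 31 measured related phosphatases (PTP4A, CDC25, myotubularin and EYA genes among them), 11 lay above 0 and 20 below when the hairpins were averaged, with a median of -0.08, and an unadjusted p was under 0.05 for 1 above and 0 below. EYA4, a transcriptional coactivator whose phosphatase activity rests on an aspartate and not a cysteine, had 5.51 and 5.81 with SHP2 sh1 and 5.41, 5.81 and 5.18 with SHP2 sh2, against 4.72 and 4.62 with Ctrl shRNA. Its SHP2 arrays were all higher, as were those of 8.13% of all genes. The mean was 0.89 ± 0.23 (SE, log2), or 0.73 without the arrays that stood apart. MTMR6, a phosphoinositide phosphatase, had 8.31 and 6.90 with SHP2 sh1 and 7.30, 6.49 and 8.47 with SHP2 sh2, against 8.51 and 8.76 with Ctrl shRNA, with a mean of -1.13 ± 0.59 (SE), or -0.54 without the arrays that stood apart.

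Of 29 measured substrates, 13 lay above 0 and 16 below, with a median of -0.02 and an unadjusted p under 0.05 for 1 above and 0 below. PDGFRB, the PDGF receptor β, had 8.19 and 8.59 with SHP2 sh1 and 7.44, 8.01 and 8.07 with SHP2 sh2, against 7.45 and 7.33 with Ctrl shRNA. SHP2 sh2 replicate 1 lay between the controls, and the mean was 0.73 ± 0.24 (SE), or 0.58 without the arrays that stood apart. CAV1, the main protein of caveolae, had 11.49 and 11.27 with SHP2 sh1 and 10.98, 10.50 and 11.50 with SHP2 sh2, against 11.69 and 11.66 with Ctrl shRNA. All SHP2 arrays of CAV1 were lower, as were those of 7.17% of all genes. Its mean was -0.49 ± 0.28 (SE), or -0.31 without the arrays that stood apart.

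Of 29 measured ligands and partners of the receptors, 19 lay above 0 and 10 below, with a median of 0.13 and an unadjusted p under 0.05 for 1 above and 1 below. GPC6, a glypican with the heparan sulphate chains that LAR receptors bind, had 6.94 and 7.26 with SHP2 sh1 and 7.11, 7.03 and 6.68 with SHP2 sh2, against 8.23 and 7.59 with Ctrl shRNA. It lay lower on every SHP2 array, as did 7.17% of all genes. The mean was -0.89 ± 0.25 (SE), or -0.99 without the arrays that stood apart. MDK (midkine), a ligand of PTPRZ1, had 8.57 and 8.88 with SHP2 sh1 and 8.29, 8.84 and 8.54 with SHP2 sh2, against 7.90 and 8.24 with Ctrl shRNA. All SHP2 arrays of MDK were higher, as were those of 8.13% of all genes. Its mean was 0.57 ± 0.23 (SE), or 0.42 without the arrays that stood apart.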

How the data were processed

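RNA of SUM159 cells was hybridized to 7 Human Gene 1.0 ST arrays. The deposited values are log2 expression, made by the authors with oligo, whose version is not given in the sources used here. Robust multi-array averaging subtracted background, equalized arrays by quantiles and combined the probes of each transcript. They were used as deposited. The labels name a column kit for RNA, the study's methods TRIzol.

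Probes were named through the platform annotation and updated with RefSeq (GRCh38.p14), where 19429 of 19460 single-symbol probes were found. The probe with the largest interquartile range stood for its gene, and each member had 1 probe. Dim genes were kept. Group means were fitted with limma (3.58.1, R 4.3.3) and eBayes over 7 arrays. Two-sided p-values were adjusted by Benjamini-Hochberg across 18417 genes, with 0.05 as threshold. The fit was also run on simulated arrays with independent normal noise for each gene. The simulation held no arrays that stood apart, so it cannot show how the fit behaves with them. The number of arrays limits the precision.

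The members and lists were chosen with earlier results of these data known. Values on every array are given for members whose SHP2 arrays all lie on a single side of both controls, members with an unadjusted p under 0.05, the 4 highest and 4 lowest mean differences, and the 2 genes of smallest p in each related list. A further part of the rule, the 3 members most like SHP2 in catalytic sequence, could not be applied, since no protein sequences were used here. Alternatives were other probes per gene, a signal filter, cyclic loess, quantile normalization, median centring, eBayes with trend, array weights, the arrays compared alone, a block for replicate number, leave-one-out of arrays, and both arrays that stood apart left out. The counts of members on a single side were recomputed under alternatives chosen after seeing the data.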

Additional observations from a re-analysis of the deposited data

How the results depend on the processing

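No member passed adjustment under any alternative. The 8 members lower on every SHP2 array kept that sign in the mean of both hairpins in all in which they were tested. Where the same values were refitted with arrays left out or weighted, that sign was fixed by how the 8 were picked. Those fits therefore say nothing about its stability. Their count was 7 after quantile normalization (6.11% of all genes), where PTPN18 was lost. With each array left out it ran from 8 to 11, the 11 without SHP2 sh1 replicate 1 (15.0% of all genes). Leaving an array out can only keep or add members on a side, so this count could not fall below 8. The count of higher members was 2 after cyclic loess (6.597% of all genes), quantile normalization (8.242%) or median centring (8.997%). PTPRZ1 was lost in each of these, and after cyclic loess PTPN7 was lost too, while PTPN23 joined PTPRH. With each array left out the count of higher members ran from 3 to 6, where 3 was likewise the least possible. It was 6 without Ctrl shRNA replicate 1 (19.5% of all genes). It was 5 without SHP2 sh1 replicate 1 (23.4%) and 5 without SHP2 sh2 replicate 3 (9.70%). Array weights called 30 genes with SHP2 sh2, none of them a member, from weights that did not converge. Of members near 0, PTPN1 turned to 0.17 with cyclic loess, 0.14 with quantile normalization, 0.12 with array weights and 0.33 without the 2 arrays that stood apart. Without these arrays PTPN5 was at -0.0049, PTPRS at -0.11, PTPRM at 0.21, PTPRU at 0.025, PTPRB at 0.036 and PTPRE at 0.033. With array weights PTPRM was at 0.038 and PTPRB at 0.0036, and PTPRO was at 0.00027 with median centring. With each array left out, PTPN1 ran from -0.24 to 0.16, PTPRS from -0.058 to 0.37, PTPRM from -0.42 to 0.24, PTPRB from -0.11 to 0.043 and PTPRO from -0.026 to 0.031. The cause was not tested. Among members above the median signal the median was -0.36 with SHP2 sh1, -0.52 with SHP2 sh2 and -0.47 in the mean of both. All genes above the median signal had medians of -0.094, -0.19 and -0.14 in the same comparisons. Without SHP2 sh1 replicate 1 the median was -0.19 with SHP2 sh1 and -0.18 in the mean of both, and without SHP2 sh2 replicate 3 it was -0.21 with SHP2 sh2.

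Arrays of equal replicate number did not deviate together between SHP2 sh1 and Ctrl shRNA (correlation -0.06) or between SHP2 sh2 and Ctrl shRNA (0.02 and -0.03). Between SHP2 sh2 and SHP2 sh1 the correlations were 0.62 for replicate 1 and 0.85 for replicate 2, the arrays that stood apart. SHP2 sh1 replicate 1 also correlated at 0.81 with SHP2 sh2 replicate 3. The deviations of the 2 SHP2 sh1 arrays mirror each other around their mean, so these values are not separate agreements by replicate number. Given the low correlations with Ctrl shRNA, the replicate numbers were not taken to pair the SHP2 arrays with the controls. With the replicate block 0 genes and 0 members were called. The median of members was then -0.21 with SHP2 sh2 and -0.16 in the mean of both, PTPRO was at 0.031, and 9 members had an unadjusted p under 0.05, against 13.2% of genes.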
